A study of Mus musculus with 4 samples.

Results

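Stromal cells of visceral fat were compared with stromal cells of subcutaneous fat in mouse adipose tissue, first in WT mice and again in mice with a floxed Tert gene and a Cre meant for endothelial cells. The cells were picked from 4 single-cell RNA libraries by their own transcripts, each cell being known by its barcode. A barcode was kept when it had at least 200 genes, at most 25% mitochondrial UMIs (unique molecular identifiers, each counted as 1 captured RNA molecule), at least 3 UMIs of Dcn and at least 2 UMIs of Pdgfra, Lum and Dpt together. It also had to have no UMI of Ptprc, the pan-leukocyte gene, and none of the endothelial genes Pecam1 and Cdh5. The rule kept 624 of 4927 barcodes. They were 82 from WT SC, 222 from WT IP, 156 from KO SC and 164 from KO IP, where SC is subcutaneous and IP intraperitoneal, that is visceral, adipose tissue.

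All groups were male mice 7 months old that had received a high-fat diet for 5 months, and all carried Tie2e-cre and the mTmG reporter, which switches from a red to a green fluorescent protein where Cre has acted. WT mice were TERT+/+ and KO mice TERTfl/fl. Cre was driven by a Tie2 promoter meant for endothelial cells, so endothelial cells were the intended target. The GFP coding sequence was counted in stromal barcodes too, at 873 CPM in WT SC, 356 in WT IP, 607 in KO SC and 98.9 in KO IP, against 1279, 1592, 666 and 615 CPM in leukocyte barcodes of the same libraries, and the source of these reads was not tested. There was 1 library per group, the labels give neither the number of mice behind a library nor whether SC and IP came from the same mice, and differences between depots and differences between libraries cannot be told apart within a genotype. The study's methods name inguinal fat as its subcutaneous and gonadal fat as its visceral depot.

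Adipose stromal cells are the fibroblast-like cells that lie between the fat cells and along the vessels. They lay down the collagen matrix and hold the precursors from which new adipocytes form. In mice these precursors include early progenitors marked by Dpp4 and Pi16 and more committed preadipocytes. The depots arise from different embryonic mesoderm, and their cells keep distinct sets of developmental transcription factors in the adult, Wt1 and Tcf21 being known in visceral fat and Tbx15 and Shox2 in subcutaneous fat.

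The picked barcodes looked stromal beyond the genes of the rule. All 10 stromal markers outside it, among them Col1a1, Col3a1 and Mfap5, were detected in every library, at a summed level of 32329 to 40029.6 CPM (the counts-per-million scale, here UMIs of a gene scaled to the stromal UMIs of its library and not corrected for gene length). Adipocyte and epithelial markers summed to at most 1.80 CPM, and T cell markers to at most 7.60 CPM. Markers of several other cell types moved with the libraries. Mesothelial genes summed to 776 CPM in KO IP against 48.2 in WT IP, 21.5 in WT SC and 12.3 in KO SC. By barcodes with at least 2 mesothelial UMIs the WT order was the reverse. There were 11 such barcodes in WT SC (13.4%), 1 in WT IP (0.45%), 5 in KO SC (3.21%) and 12 in KO IP (7.32%). All 9 mesothelial markers were detected in both IP libraries, while Msln, Lrrn4, Krt8, Krt18, Muc16 and Bnc1 were at 0 in both SC libraries. Smooth muscle and pericyte genes summed to 318 CPM in WT IP, 93.8 in KO IP, 73.4 in WT SC and 46.3 in KO SC, with Rgs5 at 0 in both SC libraries. Macrophage markers were low, at 5.70 CPM in WT SC and 8.18 in KO SC against 16.4 in WT IP and 15.9 in KO IP, with Adgre1 and C1qa at 0 in all but WT IP. Endothelial markers were at 5.06 and 3.41 CPM in SC against 9.68 and 14.1 in IP of WT and KO, with Cldn5 at 0 in all 4 libraries. B cell markers were at 7.60 and 10.2 CPM in SC against 1.47 and 4.62 in IP. The 4 haemoglobin genes summed to 6440 CPM in WT SC and 4198 in KO SC against 289 in WT IP and 66.0 in KO IP. Median depth was 20782 UMIs per barcode in WT SC, 22197 in WT IP, 7062 in KO SC and 21533 in KO IP, and the summed libraries held 1467599 to 4749913 UMIs. The part of these differences in the results below was not tested, except where a value without the barcodes in question is given.

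The genes of the rule are not findings here. Close to its limits, 1, 3, 4 and 3 kept barcodes of WT SC, WT IP, KO SC and KO IP had just 3 Dcn UMIs, and 0, 2, 5 and 3 met all else but had 2. With a sum of 2 over Pdgfra, Lum and Dpt, 2, 4, 20 and 5 were kept, and 3, 4, 9 and 3 with a sum of 1 were not.

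Barcode sequences were shared between WT IP and KO SC. These libraries had 93 barcodes in common, while every other pair of libraries had 0 or 1. Of the 156 KO SC stromal barcodes, 50 were shared. They held 1.52% to 1.96% as many UMIs as the same barcode in WT IP (median 1.71%), and a median of 99.1% of their genes were also found in that WT IP barcode. Together they held 32132 of the 1467599 stromal UMIs of KO SC. Every KO SC UMI of Wt1, Col6a5 and Tcf21 lay in these 50 barcodes. KO values are therefore given with all barcodes and, where it matters, without the shared ones, which leaves 106 KO SC barcodes with 1435467 UMIs and a median of 14661.

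Tert itself was near the limit of detection. The stromal barcodes held 0 Tert UMIs in WT SC, 5 in WT IP, 0 in KO SC and 3 in KO IP, so these cells give no check of the genotype labels.

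Each gene was compared as the log2 ratio of its CPM in IP over SC, after adding 0.5 UMI, in WT and separately in KO. The 2 ratios share no library. Genes with at least 50 UMIs in IP and SC together in each genotype were compared, 8658 in all. With 1 library per group there is no replicate spread within a genotype and no test, and no test of depot across the genotypes was run. Intervals beside ratios are exact 95% conditional binomial intervals that cover counting error only. A gene was called when it differed at least 2-fold. In WT, 654 of 9189 genes were called higher in IP (7.12%) and 559 higher in SC (6.08%). In KO, 808 of 8961 were called higher in IP (9.02%) and 507 higher in SC (5.66%).

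Both genotypes gave the same call for 631 genes (7.29%). IP was at least 2-fold higher in both for 314 of 8658 genes (3.63%), and SC for 317 (3.66%). Leaving out the shared barcodes, KO alone gave 832 IP calls (9.3%) and 512 SC calls (5.72%) among 8949 genes. Opposite calls were made for 6 genes (0.0693%). Without the shared barcodes the counts in both genotypes were 313 (3.62%) and 317 (3.67%) of 8648, and 307 and 314 of the original calls were among them. Of the 1071 genes past 2-fold in WT that could be compared in both genotypes, 93.4% had the same sign in KO and 58.9% were past 2-fold the same way. Across the 8658 genes the WT and KO ratios had a Pearson r of 0.757 and a Spearman rho of 0.616, which describes these 4 libraries, as genes are not independent replicates. The median size of the log2 difference between depots was 0.36 in WT and 0.37 in KO, against 0.25 between genotypes in SC and 0.21 in IP. Past 2-fold between genotypes were 364 genes in SC and 285 in IP.

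**Figure D1:**
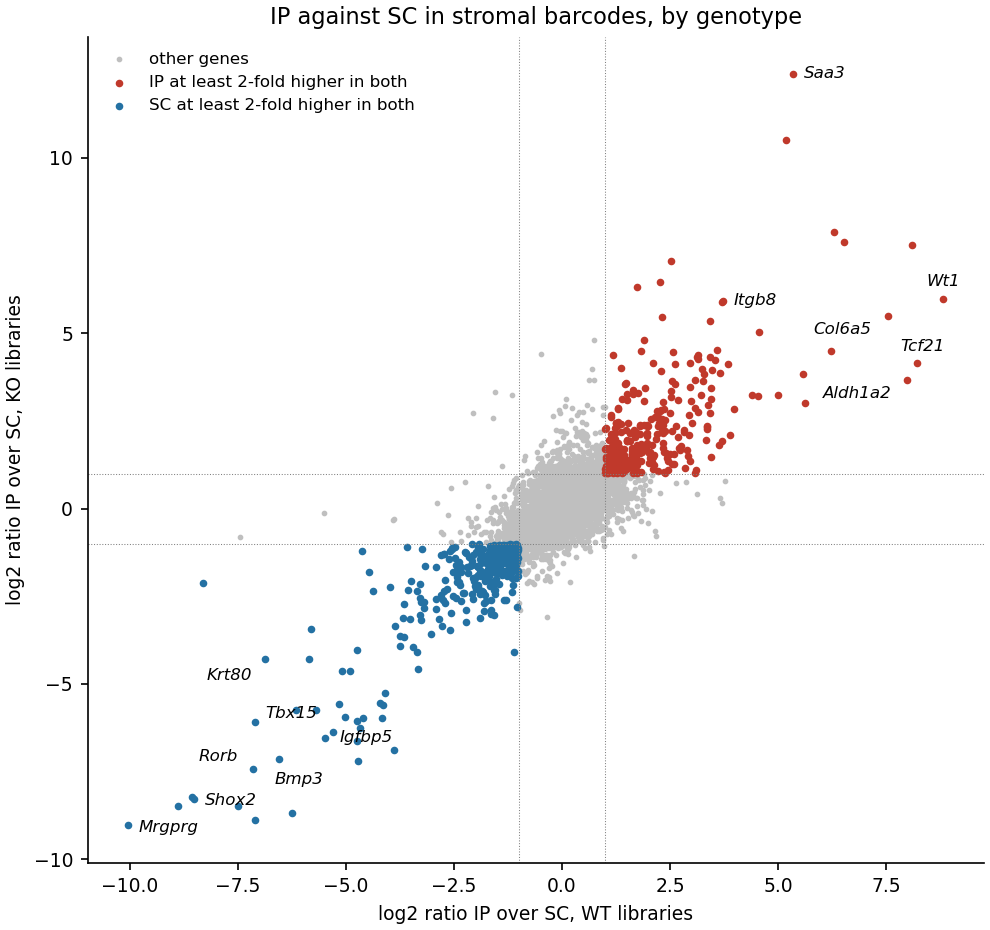
Each point is 1 of 8658 genes, placed by its log2 ratio of IP over SC in the WT libraries (horizontal axis) and in the KO libraries (vertical axis), with dotted lines at 2-fold. The 314 genes in red and 317 in blue lie past 2-fold the same way in both, with Wt1, Tcf21 and Saa3 at the IP end and Mrgprg, Shox2 and Rorb at the SC end.

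Developmental transcription factors parted the depots in both directions. The promoter regions of a visceral and a subcutaneous example, Tcf21 and Shox2, are given here with those of Rspo1 and Igfbp5, a pair of genes for secreted signalling proteins that also parted the depots. The sequences are from RefSeq (GRCm38.p6), 250 bases before to 50 bases after the start, read 5′ to 3′ on the gene's strand. Capitals mark the TATA box letters TATAAA and the GC box letters GGGCGG, on either strand. CCAAT was also searched on both strands and is in none of the 4.
Tcf21, chr10:22820094-22820393, minus strand: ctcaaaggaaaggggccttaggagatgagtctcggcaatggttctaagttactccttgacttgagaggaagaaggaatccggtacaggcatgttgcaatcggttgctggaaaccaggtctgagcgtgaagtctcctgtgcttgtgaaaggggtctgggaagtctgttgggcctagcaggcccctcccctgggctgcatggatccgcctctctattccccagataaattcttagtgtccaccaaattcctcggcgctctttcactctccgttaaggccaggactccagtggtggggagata
Rspo1, chr4:124986180-124986479, plus strand: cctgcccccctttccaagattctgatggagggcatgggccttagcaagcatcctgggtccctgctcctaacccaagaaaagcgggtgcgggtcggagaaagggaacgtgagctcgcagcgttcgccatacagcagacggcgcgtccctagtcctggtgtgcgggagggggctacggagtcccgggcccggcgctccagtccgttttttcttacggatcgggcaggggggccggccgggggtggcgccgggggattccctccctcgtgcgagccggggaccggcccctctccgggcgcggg
Shox2, chr3:66981722-66982021, minus strand: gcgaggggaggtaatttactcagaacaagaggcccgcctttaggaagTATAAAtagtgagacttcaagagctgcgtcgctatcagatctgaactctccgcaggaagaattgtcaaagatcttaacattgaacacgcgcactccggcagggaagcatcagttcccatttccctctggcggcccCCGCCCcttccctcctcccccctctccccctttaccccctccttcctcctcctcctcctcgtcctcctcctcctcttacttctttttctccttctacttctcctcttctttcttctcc
Igfbp5, chr1:72874816-72875115, minus strand: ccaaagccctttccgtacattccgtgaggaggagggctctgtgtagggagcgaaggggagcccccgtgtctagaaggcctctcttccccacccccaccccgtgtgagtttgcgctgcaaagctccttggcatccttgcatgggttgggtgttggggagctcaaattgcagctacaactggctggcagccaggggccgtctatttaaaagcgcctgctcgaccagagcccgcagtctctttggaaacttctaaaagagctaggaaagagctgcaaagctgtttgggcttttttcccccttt
Of these windows only that of Shox2 held a match, 1 TATA box on the printed strand and 1 GC box on the other. Among all 32851 promoter windows of that length, 13.6% held the TATA box letters, 35.7% the GC box letters and 37.4% CCAAT, so the matches and their absence describe these windows and no more. Of the 40 genes named by rule below, 26 had an entry among the promoter sequences, and Wt1 and Tbx15 did not.

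Wt1 (chr2:105126529-105173616, plus strand), a zinc finger factor of the mesothelium and of visceral fat precursors, had 0 UMIs in WT SC, 677 in WT IP, 6 in KO SC and 1094 in KO IP. Both IP libraries were far above both SC libraries. Against a floor of 3 UMIs per library, WT IP was at least 75.1-fold higher than WT SC. That bound is a log2 ratio of 6.23, and the exact interval started lower, at 5.93. The other bounds given against this floor also lie above the start of their exact intervals. The KO log2 ratio was 5.99 (interval 4.98 to 7.55), and without the shared barcodes KO SC had 0 UMIs and KO IP was at least 134-fold higher. Its antisense neighbour Wt1os (chr2:105076538-105126510, minus strand), whose gene ends just before Wt1 starts, had 0, 137, 0 and 256 UMIs in the same order.

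Tcf21 (chr10:22817281-22820174, minus strand), a basic helix-loop-helix factor of visceral mesenchyme, had 0 UMIs in WT SC, 447 in WT IP, 5 in KO SC and 259 in KO IP. WT IP was at least 49.6-fold higher than WT SC. The KO log2 ratio was 4.15 (interval 3.05 to 5.92), with at least 31.8-fold once the shared barcodes were left out. Tbx15 (chr3:99240381-99354259, plus strand), a T-box factor known from subcutaneous fat and limb, ran the other way, with 249 UMIs in WT SC, 5 in WT IP, 216 in KO SC and 8 in KO IP. Its log2 ratios were −7.09 (interval −8.86 to −5.98) in WT and −6.08 (interval −7.39 to −5.16) in KO. Shox2 (chr3:66971727-66981771, minus strand), a homeobox factor of the limb, had 60 UMIs in WT SC and 58 in KO SC and none in either IP library. SC was at least 60.1-fold higher in WT and at least 51.3-fold higher in KO.

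Among 44 patterning factors listed, 21 had enough UMIs to compare, 6 were at least 2-fold higher in IP in both genotypes and 5 in SC, against 3.63% and 3.66% of all genes, the shares beside which the counts of every list stand. The median log2 ratio of the 21 was −0.62 in WT and −0.71 in KO, beside 0.06 and 0.07 over all genes. The IP members after Wt1 and Tcf21 were Foxp2, Nr2f1, Nr2f2 and Foxc1. Foxp2, a forkhead factor, had 10 UMIs in WT SC, 251 in WT IP, 17 in KO SC and 391 in KO IP, log2 ratios of 2.99 and 3.08. Nr2f2, the nuclear receptor COUP-TFII, had 70, 511, 68 and 376 UMIs in that order, log2 ratios of 1.27 and 1.05. Of the SC members, Osr2, an odd-skipped zinc finger factor, had 151 UMIs in WT SC, 24 in WT IP, 201 in KO SC and 11 in KO IP, log2 ratios of −4.22 and −5.54. Emx2, a homeobox factor, followed at −3.75 and −3.64.

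Hox genes set position along the body axis. Of 35 listed, 13 could be compared, and 3 were called the same way in both genotypes, where 7.29% of all genes were. Hoxa5 had 4 UMIs in WT SC, 145 in WT IP, 6 in KO SC and 113 in KO IP, log2 ratios of 3.43 and 2.72. Hoxa3 was also higher in IP, at 1.35 and 1.73. Hoxc10, one of the more posterior genes of its cluster, had 62 UMIs in WT SC, 5 in WT IP, 51 in KO SC and 5 in KO IP, log2 ratios of −5.09 and −4.63. The Hox median was 0.43 in WT and 0.33 in KO.

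By rule, the 20 genes most different in each direction were named, ordered by the smaller of their WT and KO ratios, with genes left out that were not more than 2 times their leukocyte level in the depot where they were higher. On the IP side those reported here were, in order, Wt1os, Serpinb2, Wt1, Col6a5, Saa3, Lrrn2, C77080, Tcf21, Fndc5, Itgb8, Smim41, Aldh1a2, Gm16685, Star, Rspo1, 1200007C13Rik, Fgf1, Vwa1 and Tpm2. On the SC side they were Mrgprg, Pcdh20, Shox2, Gabra2, Cdh9, Rorb, Tmeff1, Bmp3, Akr1c18, Tbx15, Krtdap, Igfbp5, Grm7, Fam167a, Myoc, Gap43, Gpr1, Car8, Hoxc10 and Krt80. Their own ratios chose them and are given as a description. On the IP side, Vwa1 had 9 UMIs in WT SC, the second highest there after Tpm2 with 18, while Col6a5 was the highest in KO SC with 19, all of them in shared barcodes.

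**Figure D2:**
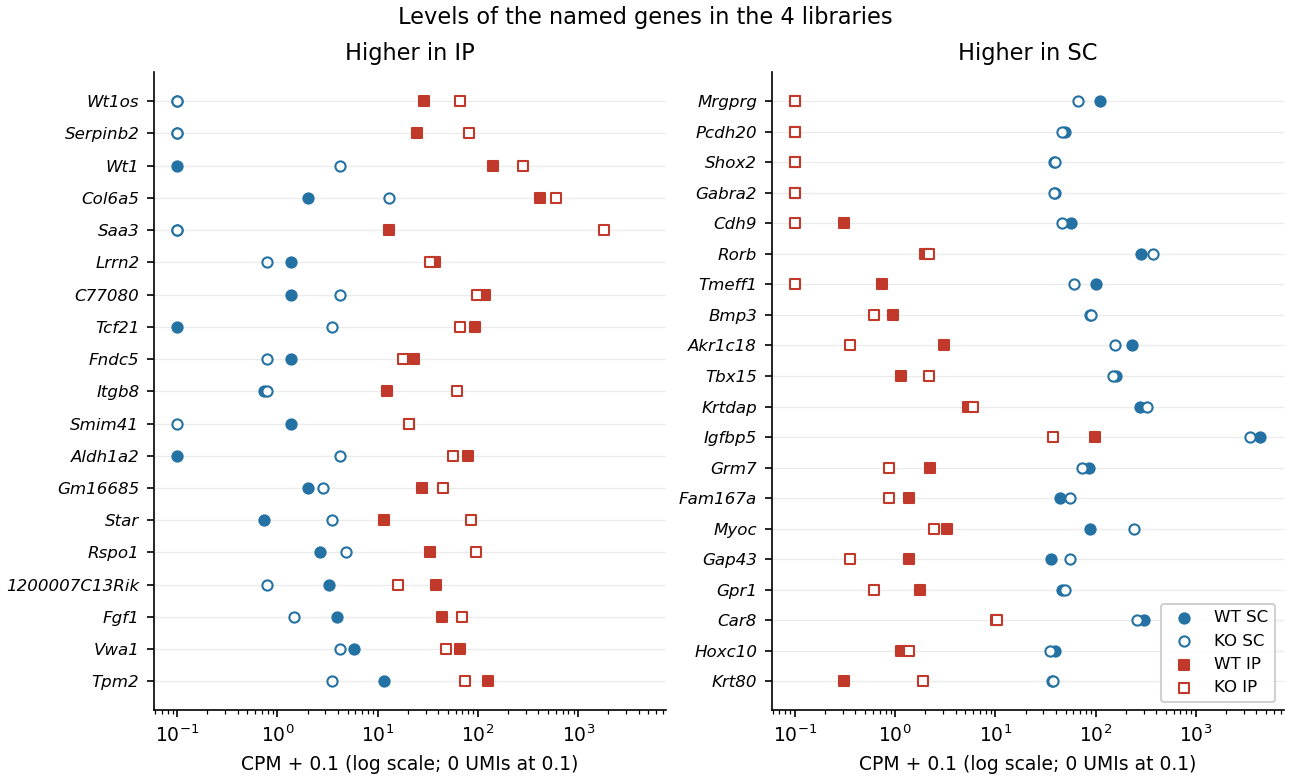
Level of each of the genes just named in the 4 libraries, as CPM plus 0.1 on a log scale, with blue circles for SC, red squares for IP, filled for WT and open for KO. In each row both IP points lie to the right of both SC points (left panel) or to the left of them (right panel), and libraries with 0 UMIs sit at 0.1.

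Col6a5 (chr9:105856078-105960643, minus strand), a chain of collagen VI, had 3 UMIs in WT SC, 1967 in WT IP, 19 in KO SC and 2350 in KO IP. Its levels were 1.90, 414, 12.9 and 604 CPM. The log2 ratio was 7.55 (interval 6.22 to 10.05) in WT and 5.51 (interval 4.90 to 6.28) in KO, and without the shared barcodes KO SC had none and KO IP was at least 289-fold higher. About 4.24% of its 25-base words were shared with Col6a6, which was also higher in IP (log2 ratios 1.64 and 3.38). Aldh1a2 (chr9:71215789-71296243, plus strand), which makes retinoic acid, had 0, 378, 6 and 220 UMIs in WT SC, WT IP, KO SC and KO IP. It was at least 41.9-fold higher in IP in WT, and the KO log2 ratio was 3.68 (interval 2.64 to 5.25). Rspo1 (chr4:124986430-125009099, plus strand), a secreted amplifier of Wnt signals, had 4, 158, 7 and 375 UMIs, log2 ratios of 3.55 and 4.24. Star, which carries cholesterol into mitochondria for steroid synthesis, had 1, 54, 5 and 332 UMIs, log2 ratios of 3.60 (interval 1.63 to 9.50) and 4.51 (interval 3.41 to 6.28). Tpm2, the muscle-type beta-tropomyosin, had 18, 598, 5 and 289 UMIs, log2 ratios of 3.43 and 4.31. With each barcode weighted equally and the shared ones included, the KO ratios of Aldh1a2 and Tpm2 were 0.64 and 0.99, and without the shared ones 3.22 and 4.86.

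A few IP genes rested on few barcodes. Saa3, an acute-phase serum amyloid, had 0 UMIs in WT SC, 61 in WT IP, 0 in KO SC and 7100 in KO IP. A single barcode held 82.0% of the WT IP UMIs and 23.2% of those in KO IP. Serpinb2, an inhibitor of plasminogen activators, had no UMI in SC, 117 in WT IP, of which 48.7% lay in 1 barcode, and 315 in KO IP, of which 37.1% did. Without barcodes that carried at least 2 mesothelial UMIs, 5 of the 315 KO IP UMIs remained. Gm16685, an antisense gene, had 89.4% of its WT IP and 65.1% of its KO IP UMIs in 1 barcode, and C77080 had 39.5% and 46.2%. Without the smooth muscle and pericyte barcodes Gm16685 had 3, 5, 4 and 8 UMIs in WT SC, WT IP, KO SC and KO IP, too few to compare. For Wt1, Tcf21, Col6a5 and Rspo1 no barcode held more than 14.6% of the IP UMIs of a library.

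The SC side opened with genes that were not detected in IP at this depth. Mrgprg (chr7:143763710-143766993, minus strand), an orphan receptor of the Mas-related family, had 173 UMIs in WT SC, 0 in WT IP, 98 in KO SC and 0 in KO IP. SC was at least 173-fold higher in WT and at least 86.6-fold higher in KO. Pcdh20, a protocadherin, had 78, 0, 67 and 0 UMIs, and Gabra2, a subunit of the GABA-A receptor, 62, 0, 56 and 0. The cadherin Cdh9 had 89, 1, 67 and 0. Rorb (chr19:18930605-19111196, minus strand), an orphan nuclear receptor, had 449, 9, 552 and 8 UMIs, log2 ratios of −7.15 (interval −8.37 to −6.29) and −7.43 (interval −8.73 to −6.53). Akr1c18, a 20-alpha-hydroxysteroid dehydrogenase, had 365, 14, 230 and 1 UMIs, and shared 6.31% of its 25-base words with other genes, Akr1cl foremost. Krtdap, a secreted protein first known from differentiating keratinocytes, had 437, 25, 478 and 23 UMIs, log2 ratios of −5.69 and −5.75. Keratin Krt80 had 58, 1, 55 and 7 UMIs. In leukocyte barcodes the depots stood the other way, with Krt80 at 2.47 CPM in WT SC, 34.5 in WT IP, 0.340 in KO SC and 22.7 in KO IP. The 6 epithelial markers, Krt5 and Krt14 among them, summed to at most 1.80 CPM in the stromal barcodes of any library.

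Igfbp5 (chr1:72857932-72874884, minus strand), a secreted binding protein of insulin-like growth factors, had the highest counts of the SC group, with 6961 UMIs in WT SC, 469 in WT IP, 5108 in KO SC and 146 in KO IP. In CPM these were 4406, 98.7, 3481 and 37.5. The log2 ratio was −5.48 (interval −5.62 to −5.34) in WT and −6.53 (interval −6.78 to −6.30) in KO. Bmp3 (chr5:98854415-98884396, plus strand), a member of the bone morphogenetic protein family, had 140, 4, 133 and 2 UMIs, log2 ratios of −6.55 and −7.15. Myoc, the secreted protein myocilin, had 138, 15, 351 and 9 UMIs, of which 1 barcode held 56.5% in WT SC and 41.0% in KO SC. Gap43, a protein of growing axons, and Car8, a carbonic anhydrase relative, had KO log2 ratios of −7.19 and −4.64.

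The share of barcodes with a UMI gave the same order once depth was made equal. Barcodes were thinned to 2000 UMIs each, which left out 7 of 82 in WT SC, 20 of 222 in WT IP, 57 of 156 in KO SC and 17 of 164 in KO IP. All 50 shared barcodes fell under that depth. Wt1 was found in 0 of 75 WT SC barcodes (exact 95% upper limit 4.80%), 35 of 202 in WT IP (17.3%, interval 12.4% to 23.3%), 0 of 99 in KO SC (upper limit 3.66%) and 35 of 147 in KO IP (23.8%, interval 17.2% to 31.5%). Col6a5 was found in none of the SC barcodes and in 31.7% and 40.1% of the IP barcodes of WT and KO. Igfbp5 was found in 68.0% of WT SC, 7.43% of WT IP, 66.7% of KO SC and 2.72% of KO IP barcodes. Tbx15 was found in 17.3% and 29.3% of SC and in none of the IP barcodes. Leukocyte barcodes (at least 1 Ptprc UMI and no Dcn UMI, median depth 6949 to 9190 UMIs) had a Wt1 UMI in at most 0.508% and an Igfbp5 UMI in at most 0.260%, likewise thinned. Before thinning, 63.5% of WT IP and 65.2% of KO IP stromal barcodes had a Wt1 UMI, against 0% of WT SC and 2.56% of KO SC.

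**Figure D3:**
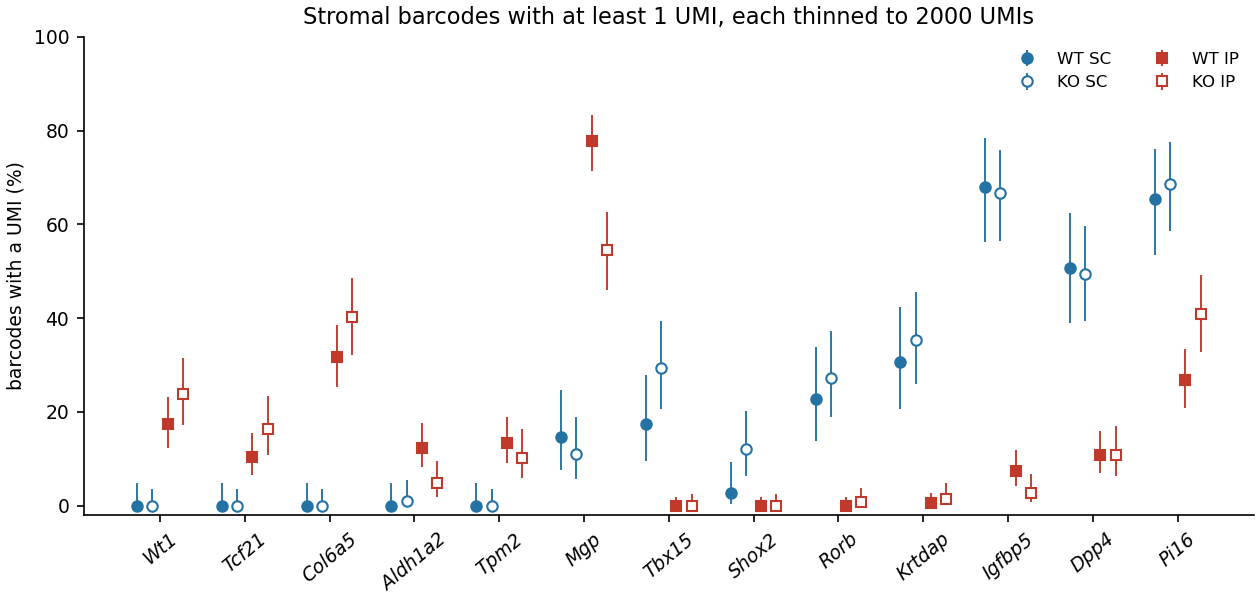
Share of stromal barcodes with at least 1 UMI of each gene after thinning every barcode to 2000 UMIs, with exact 95% binomial intervals that cover counting error only. Wt1, Tcf21, Col6a5, Aldh1a2, Tpm2 and Mgp stand higher in both IP libraries (red squares), and the other genes higher in both SC libraries (blue circles).

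Markers of the early Dpp4 progenitor were higher in SC almost throughout. Of 20 listed, all 20 could be compared, 18 were at least 2-fold higher in SC in both genotypes, and all 20 had both SC levels above both IP levels, which held for 26.1% of all genes. This list, like the others, was chosen with earlier results of these data known, so its counts are a description. The median log2 ratio was −2.43 in WT and −2.06 in KO, or −2.10 in KO without the shared barcodes. Dpp4, a cell-surface peptidase, had 731 UMIs in WT SC, 385 in WT IP, 556 in KO SC and 425 in KO IP, that is 463, 81.1, 379 and 109 CPM. Pi16, a secreted peptidase inhibitor, stood at 2529 CPM in WT SC, 258 in WT IP, 2189 in KO SC and 376 in KO IP. Its log2 ratio was −3.29 (interval −3.39 to −3.20) in WT and −2.54 (interval −2.63 to −2.45) in KO. Wnt2, a Wnt ligand, had 234, 70, 148 and 16 UMIs, log2 ratios of −3.32 and −4.58. Procr, the protein C receptor, was at −3.19 and −2.65, Sema3c, a secreted semaphorin, at −2.42 and −1.63, and Anxa3, an annexin, at −2.43 and −1.95. The 2 that were not called, Cd55 and Cd248, had log2 ratios of −1.35 and −0.69 in WT and −0.56 and −0.40 in KO. In a summed library, fewer cells of a type and less RNA per cell cannot be told apart.

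The share of barcodes that carried these genes also differed. After thinning, Dpp4 or Pi16 was found in 66.7% of WT SC (50 of 75), 31.2% of WT IP (63 of 202), 72.7% of KO SC (72 of 99) and 46.3% of KO IP barcodes (68 of 147). Before thinning, at unequal depth and with the shared barcodes included, the shares were 70.7%, 61.3%, 56.4% and 77.4%. In KO the order of the depots was then the other way. Without the shared barcodes, 81 of 106 KO SC barcodes had such a UMI, against 127 of 164 in KO IP. The unthinned share in leukocyte barcodes was 20.8% to 29.2%. The exact intervals of the thinned shares were 54.8% to 77.1%, 24.9% to 38.1%, 62.9% to 81.2% and 38.0% to 54.7%, and those of SC lay above those of IP. These intervals cover counting error only, and with 1 library per group the spread between libraries was not measured. In leukocyte barcodes, likewise thinned, the share was 3.86% to 10.3%. When the comparison was made only in barcodes with a Dpp4 or Pi16 UMI, taken at full depth, 16 of the other 18 markers were past 2-fold in SC in both genotypes, with medians of −2.14 and −2.38, where 4.22% of 8004 genes were so called. In barcodes without such a UMI, which numbered 24 in WT SC, 86 in WT IP, 25 in KO SC and 37 in KO IP once shared ones were left out, only 8 of the 18 could be compared. Igfbp5 (−2.68 and −3.16) and Opcml (−2.76 and −3.11) were past 2-fold there, and the medians were −0.70 and −0.39. Over all genes the same restriction left 41 IP (1.72%) and 44 SC calls (1.85%) among 2381 genes compared. Tbx15 had 50 UMIs in WT SC, 0 in WT IP, 77 in KO SC and 0 in KO IP in those barcodes. Col6a5 had 2, 775, 0 and 123 UMIs there.

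**Figure D4:**
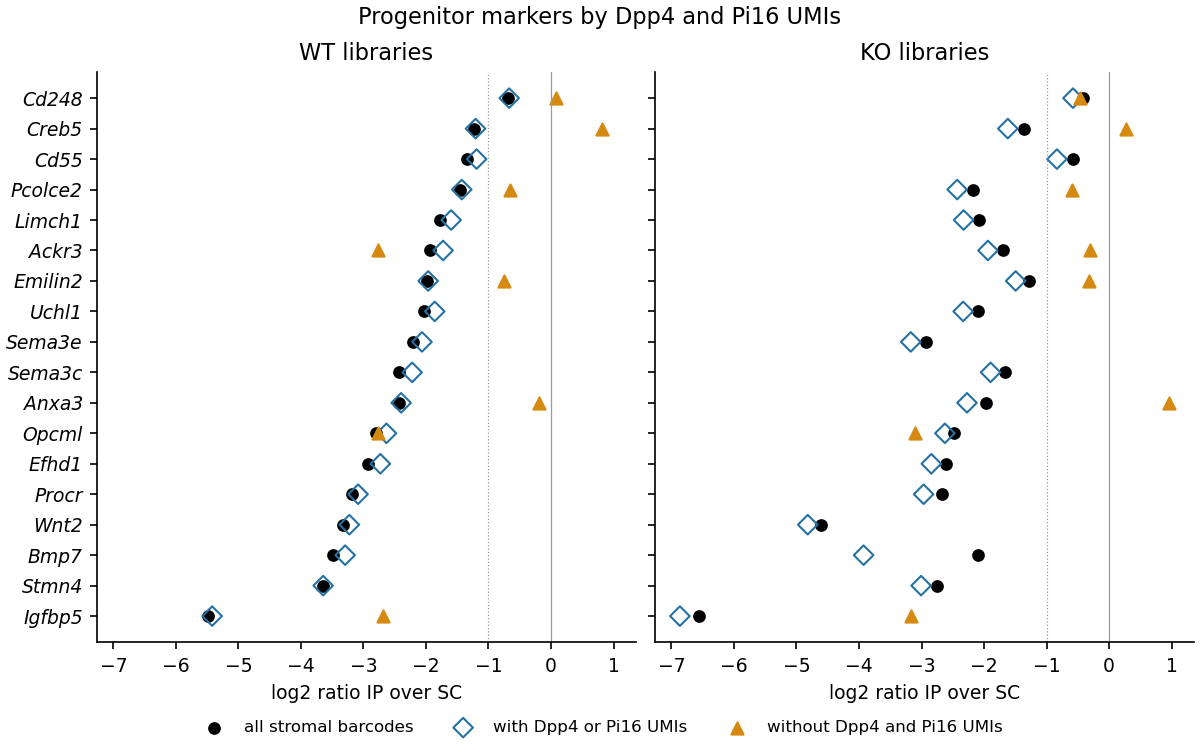
Log2 ratio of IP over SC for 18 markers of the Dpp4 progenitor in WT (left) and KO (right), without the shared barcodes, in all stromal barcodes (black circles), in those with a Dpp4 or Pi16 UMI (open diamonds) and in those without (orange triangles, drawn for the 8 markers with enough UMIs). Circles and diamonds lie below 0 for every marker and close together but for Bmp7 in KO, and triangles lie past 2-fold in both panels for Igfbp5 and Opcml, in WT alone for Ackr3, and within 2-fold for the other 5.

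Of 32 genes of the BMP, TGF beta and activin list that could be compared, 6 were called higher in SC and 2 in IP in both genotypes, and the medians were −0.42 and −0.62. That is 18.8% and 6.25% of the list, against 3.66% and 3.63% of all genes. Besides Bmp3 the SC members were Bmp2 (165, 48, 187 and 29 UMIs in WT SC, WT IP, KO SC and KO IP), Bmp7 (80, 21, 82 and 52), Bmp4 (53, 74, 59 and 64), the BMP antagonist Chrdl1 and the secreted matrix protein Tgfbi. The Bmp2 log2 ratios were −3.36 and −4.08. Higher in IP were Bmper, a secreted BMP modulator, with 206, 2698, 240 and 1827 UMIs and log2 ratios of 2.12 and 1.52, and Inhbb, an activin subunit, at 2.96 and 1.36.

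Among 18 Wnt pathway genes compared, 5 were higher in SC in both genotypes, all of them ligands, and 3 were higher in IP, all of them secreted modulators. Wnt10b had 79 UMIs in WT SC, 16 in WT IP, 94 in KO SC and 24 in KO IP, log2 ratios of −3.86 and −3.35, and Wnt2, Wnt5b, Wnt9a and Wnt11 had WT log2 ratios of −3.32, −1.95, −2.72 and −1.89. The IP members were Rspo1, Dkk3 and Sfrp1. Sfrp1, a decoy that binds Wnt ligands, had 104, 1109, 145 and 1396 UMIs, log2 ratios of 1.82 and 1.86, and Dkk3, of the Dickkopf family, 3, 81, 4 and 131 UMIs. The list medians were −0.48 in WT and 0.04 in KO.

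Growth factors were split between the depots. Of 31 compared, 9 were higher in IP in both genotypes and 6 in SC, where 3.63% and 3.66% of all genes were, with medians of −0.05 and 0.37. Fgf1 had 6 UMIs in WT SC, 210 in WT IP, 2 in KO SC and 269 in KO IP, whereas Fgf2 had 306, 260, 286 and 339, which in CPM was 194, 54.7, 195 and 87.1. The vascular growth factors parted likewise. Vegfa stood at 91.8, 25.9, 155 and 29.5 CPM in WT SC, WT IP, KO SC and KO IP, log2 ratios of −1.82 and −2.39. Vegfc and Vegfd, the lymphatic members, were higher in IP, at 1.53 and 1.17 and at 1.26 and 1.43. Pdgfa was higher in IP (2.83 and 2.19) and Pdgfc in SC (−2.36 and −2.17). Hgf, hepatocyte growth factor, was at 3.08 in WT and 1.01 in KO. In the IGF list 3 of 13 were higher in IP (Igf1, Igfbp7 and Pappa) and 2 in SC (Igfbp3 and Igfbp5). Igf1 stood at 118, 334, 204 and 444 CPM, log2 ratios of 1.49 and 1.12. Igfbp3 had 96, 18, 156 and 88 UMIs, log2 ratios of −3.97 and −2.23.

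**Figure D5:**
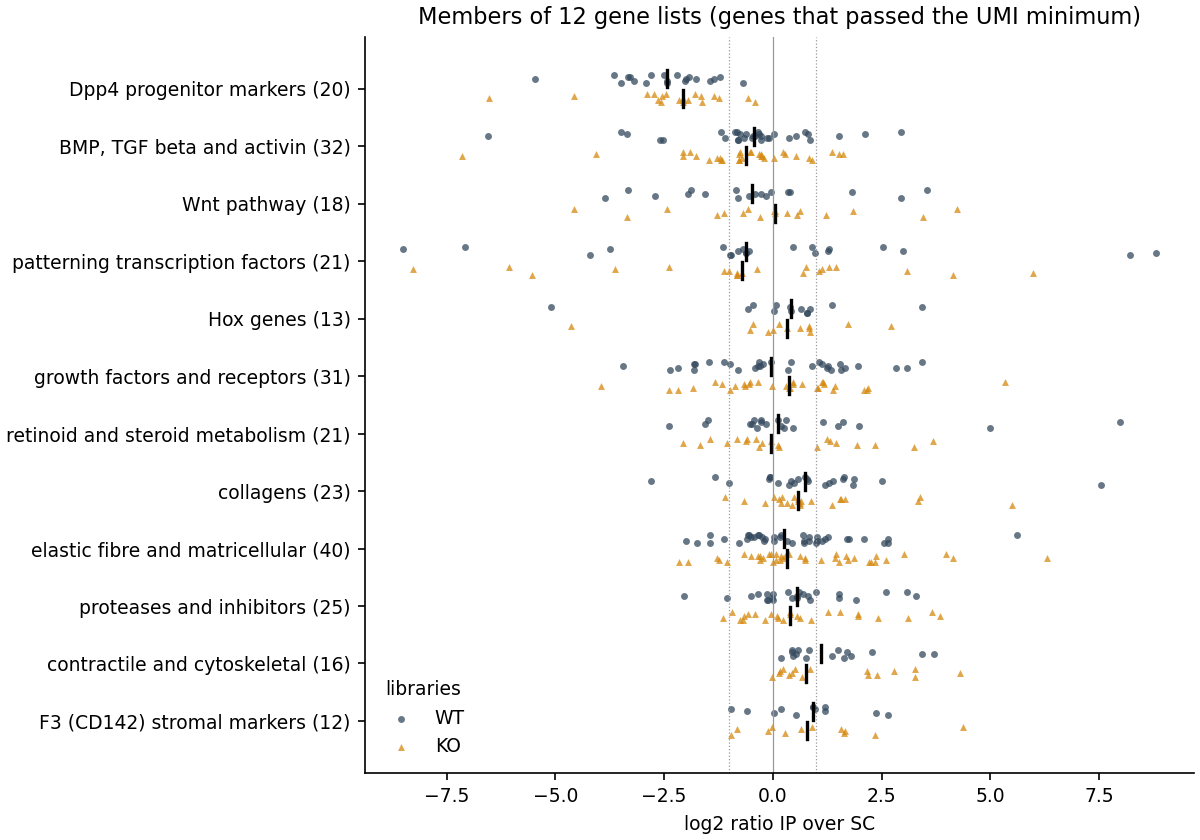
Log2 ratio of IP over SC for each gene that could be compared in 12 gene lists (number in brackets), dark circles for WT and orange triangles for KO, with a black bar at the median of the list. The Dpp4 progenitor list lies below 0, the contractile list above 0 but for Pdlim7 in KO (−0.02), and the transcription factor list is spread to both ends.

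Among genes of retinoid and steroid metabolism, a minority were called in both genotypes, and these lay on both sides. Of 21 compared, 5 were higher in IP in both genotypes, among them Aldh1a2, Dhrs3, which reduces retinal, and the cytochromes Cyp1b1 and Cyp7b1. Cyp7b1, an oxysterol hydroxylase, had 2, 241, 6 and 163 UMIs, log2 ratios of 5.01 (interval 3.46 to 8.38) and 3.25 (interval 2.20 to 4.82). The 3 higher in SC were nuclear receptors. Esr1, the oestrogen receptor alpha, stood at 212, 40.2, 185 and 57.8 CPM, log2 ratios of −2.40 and −1.68, and the retinoic acid receptors Rarb and Rarg were at −1.49 and −1.45 and at −1.56 and −2.06. The medians of the 21 were 0.12 and −0.04.

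Of 23 collagens compared, 6 were higher in IP in both genotypes (Col4a6, Col6a5, Col6a6, Col8a1, Col15a1 and Col18a1) and Col4a4 in SC, with medians of 0.74 and 0.59. These are 26.1% and 4.35% of the list, beside 3.63% and 3.66% of all genes. Col15a1, a basement membrane collagen, stood at 201 CPM in WT SC, 719 in WT IP, 172 in KO SC and 445 in KO IP. Col1a1, the main fibrillar chain, was level, at 3745, 3604, 2828 and 2877 CPM. Among 40 elastic fibre and matricellular genes 11 were higher in IP and 4 in SC, with medians of 0.25 and 0.33. Other matrix lists had medians on either side of 0. Of 16 proteoglycan genes, 3 were higher in IP (Bgn, Fmod and Sdc1) and 2 in SC (Omd and Srgn), with medians of −0.18 and 0.14. Of 16 basement membrane and adhesion genes, 3 were higher in IP (Nid2, Vtn and Cdh11) and 1 in SC (Cdh13), with medians of −0.05 and 0.26. Mgp, matrix Gla protein, had 1456, 27345, 577 and 7772 UMIs, log2 ratios of 2.64 (interval 2.57 to 2.72) and 2.34 (interval 2.22 to 2.47). Thbs1, thrombospondin 1, stood at 98.7, 582, 60.6 and 281 CPM, and Postn, periostin, at 547, 1096, 171 and 824. Ltbp2, a latent TGF beta binding protein, had 1, 221, 4 and 96 UMIs. The SC members were Emilin2, Ccn1, Ccn3 and Pcolce2, of which Emilin2 and Pcolce2 are also on the progenitor list. Tnc, tenascin C, was at 2.10 (interval 1.65 to 2.63) in WT and 4.15 (interval 2.20 to 10.05) in KO, intervals that overlap.

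Of 25 proteases and inhibitors, 5 were higher in IP and 1, the plasminogen activator Plat, in SC, where 3.63% and 3.66% of all genes were. Timp1, an inhibitor of matrix metalloproteinases, had 212 UMIs in WT SC, 5395 in WT IP, 85 in KO SC and 2859 in KO IP. Its log2 ratio was 3.08 in WT and 3.66 in KO, and 5.68 in KO without the shared barcodes, which held 65 of the 85 KO SC UMIs. Serpina3n, a secreted serine protease inhibitor, stood at 25.3, 251, 29.3 and 424 CPM, log2 ratios of 3.29 and 3.84.

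Contractile and cytoskeletal genes were higher in IP. Of 16 compared, 7 were called in both genotypes (Acta2, Tagln, Myl9, Tpm1, Tpm2, Actn1 and Palld), none in SC, and 13 had both IP levels above both SC levels, which held for 34.4% of all genes. The medians were 1.10 in WT and 0.77 in KO. Tagln, transgelin, had 48 UMIs in WT SC, 704 in WT IP, 5 in KO SC and 100 in KO IP, log2 ratios of 2.27 and 2.78. Palld, the actin-bundling palladin, stood at 50.6, 178, 32.7 and 174 CPM, log2 ratios of 1.81 and 2.39. Des, desmin, was at 3.70 (interval 2.59 to 5.48) in WT and 0.15 (interval −0.61 to 1.04) in KO, a gap between genotypes that was not tested. The smooth muscle and pericyte markers, which share Acta2, Tagln and Des with this list, moved with it. At least 2 of their UMIs were carried by 89 of 222 WT IP and 45 of 164 KO IP barcodes, against 8 of 82 and 13 of 156 in SC. These barcodes were thus picked in part by members of the contractile list. Without such barcodes 13 of the list could be compared and 5 were called in IP, with medians of 0.57 and 0.39. Tpm2 was then at 3.78 and 3.24, Palld at 2.27 and 2.43 and Actn1, an actinin, at 2.74 and 2.75.

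Among 22 chemokines and cytokines, Cxcl16 (2.34 and 2.40) and Ccl19 (2.07 and 1.33) were higher in IP and Cxcl10 (−1.02 and −1.91) in SC, or 9.09% and 4.55% against 3.63% and 3.66% of all genes. Axon guidance genes went both ways, with 5 of 19 higher in SC (Sema3a, Sema3b, Sema3c, Sema3e and Ntn4) and 4 in IP (Sema4a, Sema6d, Slit2 and Rtn1). All 4 of the called class 3 semaphorins, which are the secreted ones, lay on the SC side. Of these, Sema3c and Sema3e are also on the progenitor list, as are Wnt2, Bmp7 and Igfbp5 of the lists above. Slit2, a secreted guidance cue, stood at 84.8, 191, 50.4 and 138 CPM.

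Markers of committed preadipocytes did not mirror the progenitor list. Of 17 compared, 4 were higher in IP in both genotypes (Vcam1, Apoe, Ggt5 and Agt) and none in SC, with medians of 0.25 and 0.20. Apoe, an apolipoprotein, had 296 UMIs in WT SC, 5339 in WT IP, 519 in KO SC and 3327 in KO IP, log2 ratios of 2.58 and 1.27. Macrophages also express it, and their markers summed to 16.4 CPM in WT IP and 15.9 in KO IP, against 5.70 in WT SC and 8.18 in KO SC. Whether macrophage RNA has a part in the Apoe ratios was not tested. Vcam1, an adhesion molecule, was at 1.24 and 2.44. Of 12 markers of the F3 stromal population, which is described as restraining adipogenesis, 4 were higher in IP (Mgp, Bgn, Adam12 and Cilp) and none in SC, with medians of 0.92 and 0.78. Bgn, the proteoglycan biglycan, stood at 1018, 2336, 510 and 1626 CPM. Cilp, a matrix protein of cartilage, was at 1.19 (interval 0.97 to 1.42) in WT and 4.38 (interval 3.95 to 4.90) in KO.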

How the data were processed

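Single-cell RNA libraries (10x Chromium 3' v3; the labels name both cells and nuclei) were 1 per group, 4 in all. The deposited matrices hold raw UMI counts per gene and barcode, which the file headers tie to Cell Ranger 7.0.0 as run by the authors. The submitters' processing notes also name STAR 2.6 and mm10. Cell calling, intronic reads and strand use are not given in the sources used here. Stromal barcodes were picked by the rule given above and their counts summed per library. Log2 ratios of CPM were taken after adding 0.5 UMI, with exact conditional binomial 95% intervals, which cover counting error only. Genes needed 50 UMIs in IP and SC together in each genotype. The calculation was tested on simulated counts that had counting error alone, without spread between barcodes or libraries. That test cannot show how the intervals behave under such spread. Stromal sums held 1467599 to 4749913 UMIs, so that 3 UMIs, the floor used where a library had none, stood for 0.632 to 2.04 CPM.

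Genes were named as members of 36 lists, or as the 20 on each side with the largest smaller ratio of WT and KO. Left out were genes of the rule, reporters, mitochondrial, ribosomal, immunoglobulin, haemoglobin and sex-linked genes, and genes not above 2 times their CPM in leukocyte barcodes of the same library in the depot where they were higher. The rule, members and lists were chosen with earlier results of these data known. Scrublet (scanpy 1.11.5, expected share 5%) called 3 stromal barcodes doublets, and they were kept. Barcodes were thinned at random (seed 1) for shares. Coordinates are GRCm38 (GENCODE M21, 32158 of 32290 identifiers matched). Intervals came from scipy 1.17.1, sums and tables from numpy 2.4.6, pandas 2.3.3 and anndata 0.12.19, and plots from matplotlib 3.10.9, all under Python 3.11.15. There were 20 planned and 6 added alternatives. Some genes that met the naming rule are not reported here.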

Additional observations from a re-analysis of the deposited data

Results flagged for a closer look

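Of the 6 genes past 2-fold in opposite directions in WT and KO, 3 belong to the lists, and the difference between genotypes was not tested for any of them. Prg4, the lubricating proteoglycan 4, had 134 UMIs in WT SC, 97 in WT IP, 100 in KO SC and 1771 in KO IP, log2 ratios of −2.05 (interval −2.45 to −1.67) in WT and 2.73 (interval 2.45 to 3.04) in KO. Without barcodes that carried mesothelial UMIs, and without the shared ones, they were −2.03 and −0.66. Krt19, a keratin and itself on the mesothelial list, had 33, 45, 16 and 414 UMIs in the same order, log2 ratios of −1.15 and 3.24, and 5, 0, 3 and 1 UMIs without those barcodes. All of its WT IP UMIs lay in 1 barcode.

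Notch3, a receptor of mural cells that is itself on the smooth muscle and pericyte list, had 20, 196, 31 and 32 UMIs, log2 ratios of 1.67 (interval 1.04 to 2.45) in WT and −1.36 (interval −2.12 to −0.60) in KO. Without barcodes that carried smooth muscle or pericyte UMIs it had 2, 13, 9 and 8 UMIs. The other 3, Cobll1, Atp8a1 and Eda2r, are named here only because their values were seen, and each was higher in SC in WT and higher in IP in KO.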

How the results depend on the processing

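No paired analysis was run. Each group had 1 library, the labels do not say whether SC and IP came from the same mice, and the replicate numbers were only assigned. No result came from a test. A fit of depot with genotype as a block was not run. In WT 1213 genes and in KO 1315 were past 2-fold, and in both genotypes 314 were higher in IP and 317 in SC. With a minimum of 20 UMIs these were 1864, 2047 and 485 for WT, KO and IP. With a minimum of 100 UMIs KO gave 857 and IP 198. With 1 UMI as the minimum the 4 counts were 5088, 5173, 964 and 932. A limit of 1.5-fold gave 2853, 2894, 716 and 719, and 4-fold gave 331, 434, 85 and 82. Thinning gave 2580 in WT and 2620 in KO. Equal weight for each barcode gave 242 for IP and 209 for SC, and 359 and 278 without the shared barcodes. Barcodes with no Dpp4 or Pi16 UMI gave 613, 284, 37 and 42, and 613, 296, 41 and 44 without the shared barcodes, with fewer genes compared. The alternatives that left out the shared barcodes or those above 60000 UMIs were chosen after seeing the data.

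For the 40 genes named by rule, 1668 of 1874 values moved by less than their interval, 192 moved further with the same sign and 14 had the other sign. That total includes values that could not move. A UMI minimum of 20, 100 or 1 leaves every ratio as it is, so all 80 values stayed under each. Leaving out KO SC barcodes likewise cannot move a WT ratio. Under thinning 41 of 80 values stayed and 39 moved further. In barcodes without Dpp4 and Pi16 UMIs 16 of 58 stayed, 36 moved further and 6 had the other sign. Gm16685 was at −0.18 in WT without smooth muscle and pericyte barcodes, −0.15 in KO with equal weights and −0.22 in KO without barcodes above 60000 UMIs. In barcodes with no Dpp4 or Pi16 UMI, Gm16685 was at −0.96 in WT and −2.16 in KO, Fgf1 at −1.42 in KO, Myoc at 0.14 in WT and Car8 at 0.14 in WT and 2.49 in KO. Without the shared barcodes as well, Fgf1 was at −1.54 and Car8 at 2.37 in KO, with Gm16685 at −0.96, Myoc at 0.14 and Car8 at 0.14 in WT. These values rest on too few UMIs to compare. Without the shared barcodes, WT SC and WT IP held 1 and 3 of Gm16685, 0 and 2 of Myoc and 0 and 2 of Car8, and KO SC and KO IP 1 and 0 of Fgf1 and 0 and 2 of Car8. Of the 3 other values of Gm16685, that without smooth muscle and pericyte barcodes also rests on too few UMIs to compare, as given above. With equal weights and without the shared barcodes its KO ratio was 4.20. The cause of these values was not tested. Scaling by the median of ratios moved the median of all genes from 0.06 and 0.07 to 0.13 and 0.14 and gave 348 IP and 285 SC calls. With equal weights and the shared barcodes included, the KO ratios of Wt1 and Col6a5 were 1.55 and 1.40, and those of Tcf21, Fndc5, Aldh1a2 and Tpm2 were under 2-fold at 0.50, 0.48, 0.64 and 0.99. Without the shared barcodes these 6 were 9.15, 10.58, 7.80, 5.44, 3.22 and 4.86.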

Other observations

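Several other gene groups had median log2 ratios within 2-fold in both genotypes. Of 81 cytosolic ribosomal protein genes compared none was past 2-fold in both genotypes, with median log2 ratios of 0.08 in WT and −0.03 in KO. The 13 mitochondrially encoded genes also gave no call, with medians of 0.41 and 0.37. Of them, 11 had both IP levels above both SC levels, which held for 34.4% of all genes, and none had the reverse. Of 29 interferon-stimulated genes, Ifitm1 was higher in IP and Usp18 in SC, 3.45% of the list each way beside 3.63% and 3.66% of all genes (medians −0.35 and −0.07). Among 23 adipogenic and lipid genes Apoe and G0s2 were higher in IP and Apod, a lipocalin, and Mgll, which cleaves monoglycerides, in SC (medians 0.25 and 0.14). Mgll was at −2.74 in WT and −2.34 in KO.

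Of 34 genes that rise when tissue is dissociated, Fosl1, Klf4 and Nfkbiz were higher in SC and none in IP (medians −0.13 and −0.52). Of 13 glucocorticoid-responsive genes Errfi1 and Glul were higher in SC (medians −0.02 and −0.35). Of 6 proliferation genes with enough UMIs none was called.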
